A study of Mus musculus with 9 samples.

Results

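A set of 40 imprinted genes and imprinted noncoding RNAs of the mouse was examined for chromatin retrieved with the long noncoding RNA Gm4665, and 23 of the 40 had at least 1 Gm4665 interval within 5 kb, beside 33.7% of all genes. They were chosen by name, not by any measured value, but with earlier results of these data known. Each was represented by its RefSeq span with 5 kb on either side. The 40 were drawn from 49603 annotated genes and lie in 15 imprinted domains. At these genes the Gm4665 list held 38 of its 38711 intervals, and the LacZ list held 15 of its 9448.

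The cells were testis germ cells of ICR wild-type animals aged 35 days after birth, and their cross-linked, sonicated chromatin was captured with biotinylated probes. The 9 samples form 3 groups of 3: Gm4665 probes, LacZ probes (LacZ is a bacterial gene that mice lack) and input DNA, which entered only as the denominator of the deposited folds. All groups share strain, tissue and age. Groups were read from the sample titles, since the protocol text is the same for every sample. Those titles call the captured RNA LncRNA-20, and no label equates that name with Gm4665, which the protocol text gives. Neither the number of animals nor whether replicates came from separate animals is stated, so the spread between replicates may be partly technical. How the germ cells were purified is not stated either, and DNA folds offer no check of the cell type against its marker genes. Depth is unknown because the files hold folds and no counts.

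An imprinted gene is expressed mainly from the copy inherited from a single parent. The choice is set by a stretch of DNA that is methylated in the sperm or in the oocyte, and genes that share such a control region form a domain. Noncoding RNAs are central to several domains: Airn and Kcnq1ot1 are transcribed from the paternal copy and silence neighbouring genes in cis, while H19 and Meg3 are transcribed from the maternal copy. Male germ cells erase the inherited marks and write the paternal pattern, so sperm carry methylation at the H19-Igf2, Dlk1-Meg3 and Rasgrf1 control regions and lack it at those methylated in the oocyte.

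Of 45 annotated start-site windows that RefSeq (GRCm38.p6) gives for 31 of the 40 genes, each reaching from 250 bases before a start to 50 after it, Gm4665 intervals overlapped 2, those of Airn and Slc22a18. Across all 32851 such windows the share was 1.80%. No member's window was overlapped by a LacZ interval, against 0.728% of all windows. Both sequences are shown because they are the only annotated member starts inside Gm4665 intervals. They are printed 5′ to 3′ on the plus strand, the strand of both genes, with CG dinucleotides, the bases that carry imprinted methylation, in capitals. Airn lies at chr17:12741061-12741360 and Slc22a18 at chr7:143473539-143473838.
Airn: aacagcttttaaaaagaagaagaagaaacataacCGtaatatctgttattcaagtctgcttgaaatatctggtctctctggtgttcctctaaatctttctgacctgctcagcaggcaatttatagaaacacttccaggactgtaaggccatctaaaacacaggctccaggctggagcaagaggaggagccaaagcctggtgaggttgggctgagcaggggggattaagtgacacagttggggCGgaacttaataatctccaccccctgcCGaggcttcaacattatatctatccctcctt
Slc22a18: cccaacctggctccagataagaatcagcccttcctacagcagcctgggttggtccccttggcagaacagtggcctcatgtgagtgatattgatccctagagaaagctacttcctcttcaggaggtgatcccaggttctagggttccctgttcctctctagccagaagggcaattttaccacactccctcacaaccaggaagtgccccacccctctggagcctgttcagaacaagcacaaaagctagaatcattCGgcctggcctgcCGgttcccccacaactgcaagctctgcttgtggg
Airn's window held 3 CG dinucleotides and that of Slc22a18 held 2, against a median of 14 in the 45 member windows and of 7 in all windows. Neither contained TGCCGC (or GCGGCA, its other strand), the hexamer that the imprint-keeping zinc finger protein ZFP57 recognises when it is methylated. That hexamer occurred in 12 of the 45 member windows (26.7%) and in 11.6% of all windows. Some member windows overlap one another, as at Gnas and Mest, and the rates were not matched for CG content.

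Gm4665 intervals lay near 23 of 40 imprinted genes (57.5%), where the share of all genes was 33.7%. LacZ intervals lay near 14 of 40 (35%), where the share of all genes was 12.9%. Long genes collect more intervals in both lists, so the same shares were read by gene length. Among genes of 50 kb and over, 12 of 15 imprinted genes had a Gm4665 interval (80%), beside 80.2% of all such genes. In the class of 5 to 50 kb the count was 8 of 14 (57.1%), beside 39.0%, and under 5 kb it was 3 of 11 (27.3%), beside 17.2%. With LacZ probes the counts were 6 of 15 for the longest class, beside 41.2% of all such genes, 5 of 14 for the middle class, beside 13.2%, and 3 of 11 for the shortest, beside 5.36%. The imprinted share was therefore level with the background in the longest class with either probe set, and above it by a few genes in the shorter classes with both probe sets.

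**Figure D1:**
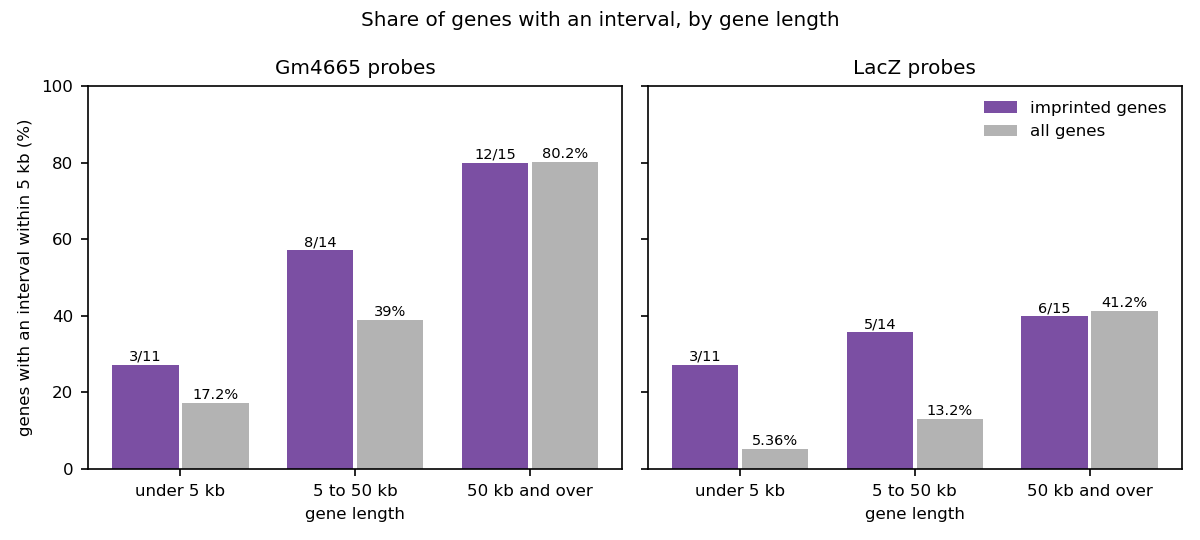
Percentage of genes with an interval within 5 kb (vertical axis) by gene length (horizontal axis), with Gm4665 probes on the left and LacZ probes on the right; purple bars are the imprinted genes, labelled with their counts, and grey bars all genes. In the longest class the purple and grey bars are level in both panels (12 of 15 beside 80.2% with Gm4665 probes, 6 of 15 beside 41.2% with LacZ probes).

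With 5 kb flanks the shares of marked genes in paternally and maternally methylated domains were close. With shorter flanks the paternal share was lower, because the intervals at H19 and Dlk1 lie outside those genes. A Gm4665 interval lay near 5 of 9 genes in the 3 paternally methylated domains (55.6%) and near 18 of 31 genes in the 12 maternally methylated domains (58.1%). Of all genes 33.7% had one. Without flanks the counts were 3 of 9 and 16 of 31, beside 22.0% of all genes. With 2 kb flanks they were 3 of 9 and 17 of 31, and no share of all genes is given for that setting. Median gene length was 16 kb in the paternally and 38.3 kb in the maternally methylated domains, and the counts were not matched for length. Per Mb of the 5 kb windows the order was reversed, with 19.8 Gm4665 midpoints in the paternally and 12.5 in the maternally methylated domains. Neither difference was tested. LacZ intervals lay near 3 of the 9 (33.3%) and near 11 of the 31 (35.5%), beside 12.9% of all genes. Of the 7 noncoding members, 5 had a Gm4665 interval (H19, Meg3, Kcnq1ot1, Airn and Nespas), beside 24.7% of all genes that are not protein-coding. Of the 33 protein-coding members 18 did (54.5%), beside 45.1%. Median lengths were 30.7 kb for the noncoding and 26.6 kb for the protein-coding members, and these backgrounds were not matched for length. Among all genes of 5 to 50 kb the Gm4665 share was 39.0%, and among those of 50 kb and over 80.2%. LacZ intervals lay near 3 noncoding members (H19, Mirg and Airn), beside 8.02%, and near 11 protein-coding members (33.3%), beside 19%. Of the 40 genes 8 had intervals of both lists, beside 7.13% of all genes, and 11 had neither, beside 60.6%.

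The merged windows of the 40 genes, 2.68 Mb in all, held the midpoints of 36 Gm4665 intervals, or 13.4 per Mb, beside 15.7 per Mb over the autosomes. They held the midpoints of 14 LacZ intervals, or 5.22 per Mb, beside 3.83 per Mb. At the imprinted genes the 3 Gm4665 replicates had median folds over input of 10.8, 8.15 and 11.4 (mean 10.1 ± 1.73, SD, n = 3), level with 10.1 ± 1.45 (SD, n = 3) over the whole list. For LacZ it was 24.2, 10 and 11.8 (mean 15.3 ± 7.72, SD, n = 3), beside 14 ± 7.89 (SD, n = 3) over its whole list. Each list was normalised to input separately, so folds of one list are not set against those of the other. The 7 Gm4665 intervals at paternally methylated domains had median folds of 8.87, 6.46 and 7.62 in the 3 replicates (mean 7.65 ± 1.2, SD, n = 3), and the 31 at maternally methylated domains had 12.9, 8.5 and 12.7 (mean 11.4 ± 2.49, SD, n = 3). Intervals are not replicates of a domain type, and this difference was not tested. Replicates ranked the 38 Gm4665 intervals alike, with Spearman's rho of 0.891 to 0.916 across intervals, which share their libraries. Replicate 1 was the highest in 25 of the 38 Gm4665 intervals (56.3% of the whole list) and in 13 of the 15 LacZ intervals (95.9% of that list). Without LacZ replicate 1, the mean of the median LacZ folds at these genes was 10.9. The SD was a median of 19.3% of the mean at the Gm4665 intervals and of 52.5% at the LacZ intervals. None of the 38 Gm4665 intervals at these genes overlapped a LacZ interval, and over the whole list only 344 of 38711 did.

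**Figure D2:**
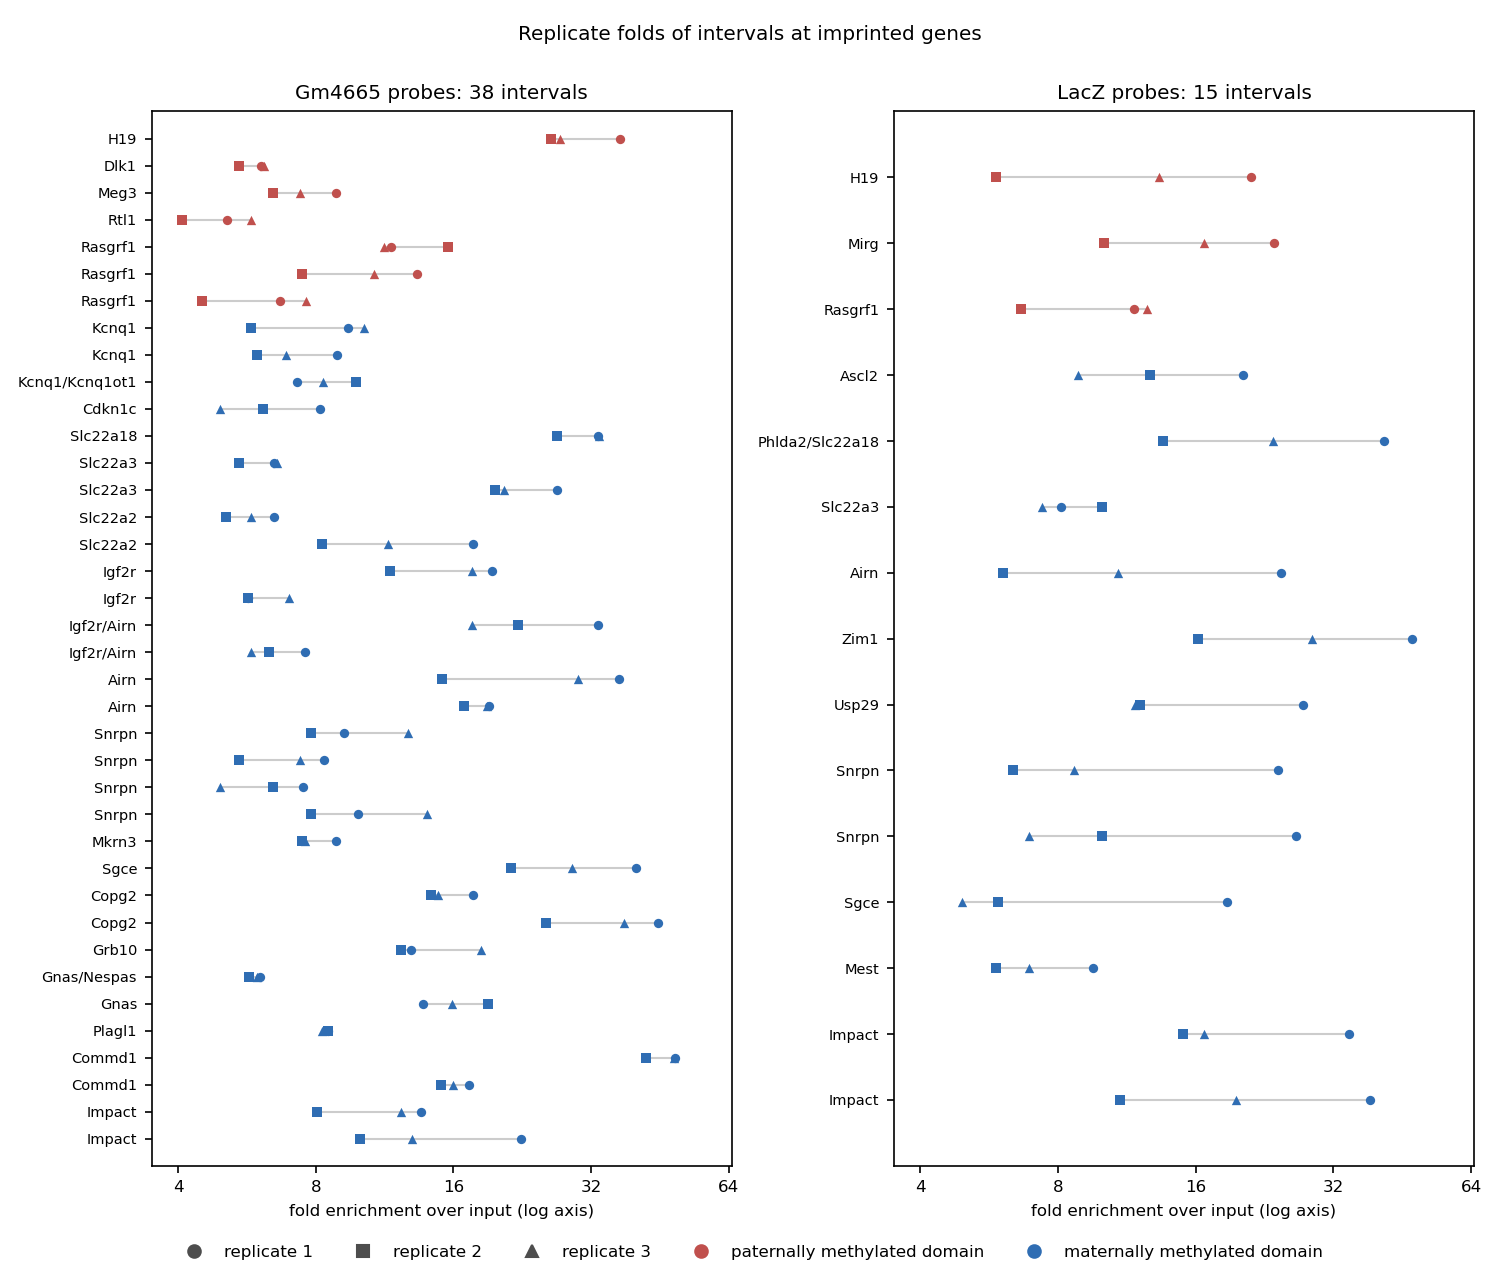
Fold enrichment over input (horizontal, log axis) in replicates 1, 2 and 3 (circle, square, triangle) for each interval at an imprinted gene, with the 38 Gm4665 intervals on the left and the 15 LacZ intervals on the right; rows run by domain and position, red for paternally and blue for maternally methylated domains, and grey lines join the replicates. Circles sit farthest right in 13 of 15 LacZ rows and in 25 of 38 Gm4665 rows.

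In the H19-Igf2 domain, where H19 is a growth-restraining noncoding RNA and Igf2 encodes a fetal growth factor, a strong Gm4665 interval lay between the 2 genes on the H19 side. It ran over chr7:142580891-142581821, 2745 bp beyond the higher-coordinate end of H19 (142575530 to 142578146). That end is the start of H19, since miR-675, which is cut from its transcript, is annotated on the minus strand. The sperm-methylated control region is known to lie upstream of H19, between it and Igf2, but its coordinates were not used here. Gm4665 folds, here and below in the order of replicates 1, 2 and 3, were 37, 26.1 and 27.3 (mean 30.1 ± 5.99, SD, n = 3), higher than 93.7% of the list. A LacZ interval, chr7:142577588-142578500, covered the start of H19 itself and lay 2391 bp from the Gm4665 interval. Its LacZ folds were 21.1, 5.85 and 13.3 (mean 13.4 ± 7.6, SD, n = 3), near the middle of that list (higher than 45.8%). Igf2 and the insulin gene Ins2 had no interval of either list.

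Within the Dlk1-Meg3 domain, which expresses the Notch-related protein gene Dlk1 and the retrotransposon-derived gene Rtl1 from the paternal copy and a chain of noncoding RNAs from the maternal copy, 3 weak Gm4665 intervals were listed within 5 kb of the genes, and 2 others lay between genes. At Dlk1 the interval chr12:109448665-109449067 lay 3418 bp before the gene and had folds of 6.06, 5.44 and 6.17 (mean 5.89 ± 0.393, SD, n = 3). Inside Meg3, chr12:109549160-109549808 had 8.87, 6.46 and 7.4 (mean 7.58 ± 1.21, SD, n = 3). Rtl1 held chr12:109590614-109590879, with 5.11, 4.08 and 5.76 (mean 4.98 ± 0.845, SD, n = 3). All 3 at the genes were below the list median, and the Rtl1 interval exceeded only 2.06% of the list. The snoRNA host Rian had no interval of either list. Mirg, a microRNA host, had a single LacZ interval 1483 bp before it, chr12:109732640-109733498, with folds of 23.7, 10.1 and 16.7 (mean 16.8 ± 6.83, SD, n = 3).

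Imprinted domains carry many microRNA genes, 57 of them in the Dlk1-Meg3 span and 74 in all 15 domain spans. No hairpin of the 74 overlapped an interval of either list, where 1.29% of 1005 hairpins genome-wide overlapped a Gm4665 interval and 0.199% a LacZ interval. The nearest was Mir431, 77 bp from the Rtl1 interval, followed within the same gene by Mir433 at 836 bp. Both are transcribed antisense to Rtl1. Hairpins also lay within 1 kb of intervals elsewhere. Mir382 (273 bp) and Mir134 (641 bp) were near the LacZ interval before Mirg. Mir882 (499 bp) and Mir344e (667 bp) were near Gm4665 intervals between member genes. Mir675, inside H19, lay 441 bp from the LacZ interval at the H19 start and 3744 bp from the Gm4665 interval. The mature sequences of Mir431, Mir433 and Mir675 are given because they are the microRNAs closest to the intervals at Rtl1 and H19. The seed (bases 2 to 8) is in capitals, and the sequences are from RefSeq.
mmu-miR-431-5p: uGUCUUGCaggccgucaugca
mmu-miR-431-3p: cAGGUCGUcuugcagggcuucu
mmu-miR-433-5p: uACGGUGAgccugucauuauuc
mmu-miR-433-3p: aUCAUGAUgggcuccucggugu
mmu-miR-675-5p: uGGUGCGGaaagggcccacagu
mmu-miR-675-3p: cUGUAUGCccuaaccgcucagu
No seed is shared among these 6 sequences.

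At Rasgrf1, which encodes a Ras exchange factor, 3 Gm4665 intervals lay toward the 3′ end of the gene or past it. The interval chr9:90001196-90002020 had folds of 11.7, 15.6 and 11.3 (mean 12.9 ± 2.4, SD, n = 3). Next to it, chr9:90012361-90012926 had 13.3, 7.48 and 10.7 (mean 10.5 ± 2.91, SD, n = 3), and chr9:90031584-90032054, 4605 bp past the gene, had 6.68, 4.52 and 7.62 (mean 6.27 ± 1.59, SD, n = 3). The first 2 were above the list median of mean folds, 9.99, and the last was below it. A LacZ interval inside the gene, chr9:89970239-89970987, had 11.7, 6.64 and 12.5 (mean 10.3 ± 3.19, SD, n = 3).

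The Igf2r-Airn domain on chromosome 17 was the most densely marked of the domains with 3 or more of these genes, with Gm4665 intervals at all 4 genes. Igf2r encodes the receptor that clears IGF2, Airn is the antisense RNA that starts inside it, and Slc22a2 and Slc22a3 encode organic cation transporters. At these genes lay 10 intervals, and 11 in the whole 440 kb span and its flanks, or 24.4 per Mb. The autosomes held 15.7 per Mb, and the smaller Impact and Gnas domains 41.4 and 26.5 per Mb. Igf2r, Airn and Slc22a3 are longer than 50 kb, a class in which 80.2% of all genes have a Gm4665 interval. The interval at the start of Airn, chr17:12740344-12741384, also lies inside Igf2r and contains the whole Airn window printed above. Its folds were 33.1, 22.1 and 17.6 (mean 24.3 ± 7.95, SD, n = 3), higher than 89.2% of the list, with replicate 1 apart from the others. The nearest LacZ interval was 34820 bp away.

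Farther along Airn, 3 more intervals were listed. The strongest of the domain, chr17:12840868-12842062, fell where Airn runs through Mas1 and had 36.8, 15.1 and 30 (mean 27.3 ± 11.1, SD, n = 3). Also in Mas1, chr17:12857481-12858411 had 19.1, 16.9 and 18.9 (mean 18.3 ± 1.2, SD, n = 3). The interval chr17:12770715-12771032 lay 1009 bp upstream of the Igf2r start, within Airn, and had 7.59, 6.33 and 5.76 (mean 6.56 ± 0.936, SD, n = 3). It was the nearest of the 38 to a LacZ interval other than those at H19 and Impact, at 5172 bp. That LacZ interval, chr17:12776204-12777053, had 24.6, 6.05 and 10.8 (mean 13.8 ± 9.61, SD, n = 3).

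Inside Igf2r, chr17:12715234-12716210 had folds of 19.4, 11.6 and 17.6 (mean 16.2 ± 4.09, SD, n = 3), and chr17:12719018-12719321 had 5.69, 5.69 and 6.99 (mean 6.13 ± 0.75, SD, n = 3). Slc22a2 held chr17:12596015-12596465 with 6.48, 5.09 and 5.76 (mean 5.78 ± 0.694, SD, n = 3) and chr17:12612564-12612994 with 17.7, 8.26 and 11.5 (mean 12.5 ± 4.81, SD, n = 3). Igf2r had 4 Gm4665 intervals in all, including those at the Airn start and upstream of its own start. In the pair given here for each gene, the replicates of the stronger interval did not overlap those of the weaker. Slc22a3 repeated this, with chr17:12433296-12434175 inside the gene at 26.9, 19.7 and 20.6 (mean 22.4 ± 3.94, SD, n = 3) and chr17:12417700-12418025, 1947 bp past its 3′ end within Plg, at 6.47, 5.44 and 6.58 (mean 6.16 ± 0.628, SD, n = 3). A LacZ interval inside Slc22a3, chr17:12493365-12494438, had 8.1, 10 and 7.36 (mean 8.49 ± 1.36, SD, n = 3), higher than 9.66% of its list.

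In the Kcnq1 domain 4 of 7 genes had a Gm4665 interval, and the strong one lay at the transporter gene Slc22a18. It ran over chr7:143472313-143474447, 2135 bp wide, and contained the annotated start printed above. Folds were 33.1, 27 and 33.3 (mean 31.1 ± 3.6, SD, n = 3), higher than 94.3% of the list and close together in all 3 replicates. The potassium channel gene Kcnq1 had 3 weaker intervals. Before it, chr7:143105835-143106202 had 9.43, 5.78 and 10.2 (mean 8.48 ± 2.36, SD, n = 3), and inside it chr7:143123181-143123726 had 8.92, 5.95 and 6.9 (mean 7.26 ± 1.52, SD, n = 3). The third, chr7:143264746-143265199, is also inside Kcnq1ot1, the domain's silencing RNA, 31348 bp from that RNA's start, and had 7.29, 9.8 and 8.28 (mean 8.46 ± 1.27, SD, n = 3). The Kcnq1ot1 start was thus not marked, unlike that of Airn.

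Near Cdkn1c, a cell cycle inhibitor gene, chr7:143452519-143453344 lay 4995 bp from the gene, just within the window, and had folds of 8.18, 6.12 and 4.93 (mean 6.41 ± 1.64, SD, n = 3). The placental growth regulator gene Phlda2 had no Gm4665 interval, but a LacZ interval 295 bp upstream, chr7:143503440-143504596, with 41.3, 13.6 and 23.6 (mean 26.2 ± 14.1, SD, n = 3). That interval also fell in the Slc22a18 window and was higher than 88.5% of the LacZ list. Ascl2, a trophoblast transcription factor gene, had only a LacZ interval 4853 bp upstream, chr7:142974117-142974848, with 20.3, 12.7 and 8.85 (mean 14 ± 5.81, SD, n = 3). Tssc4 had none of either list.

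**Figure D3:**
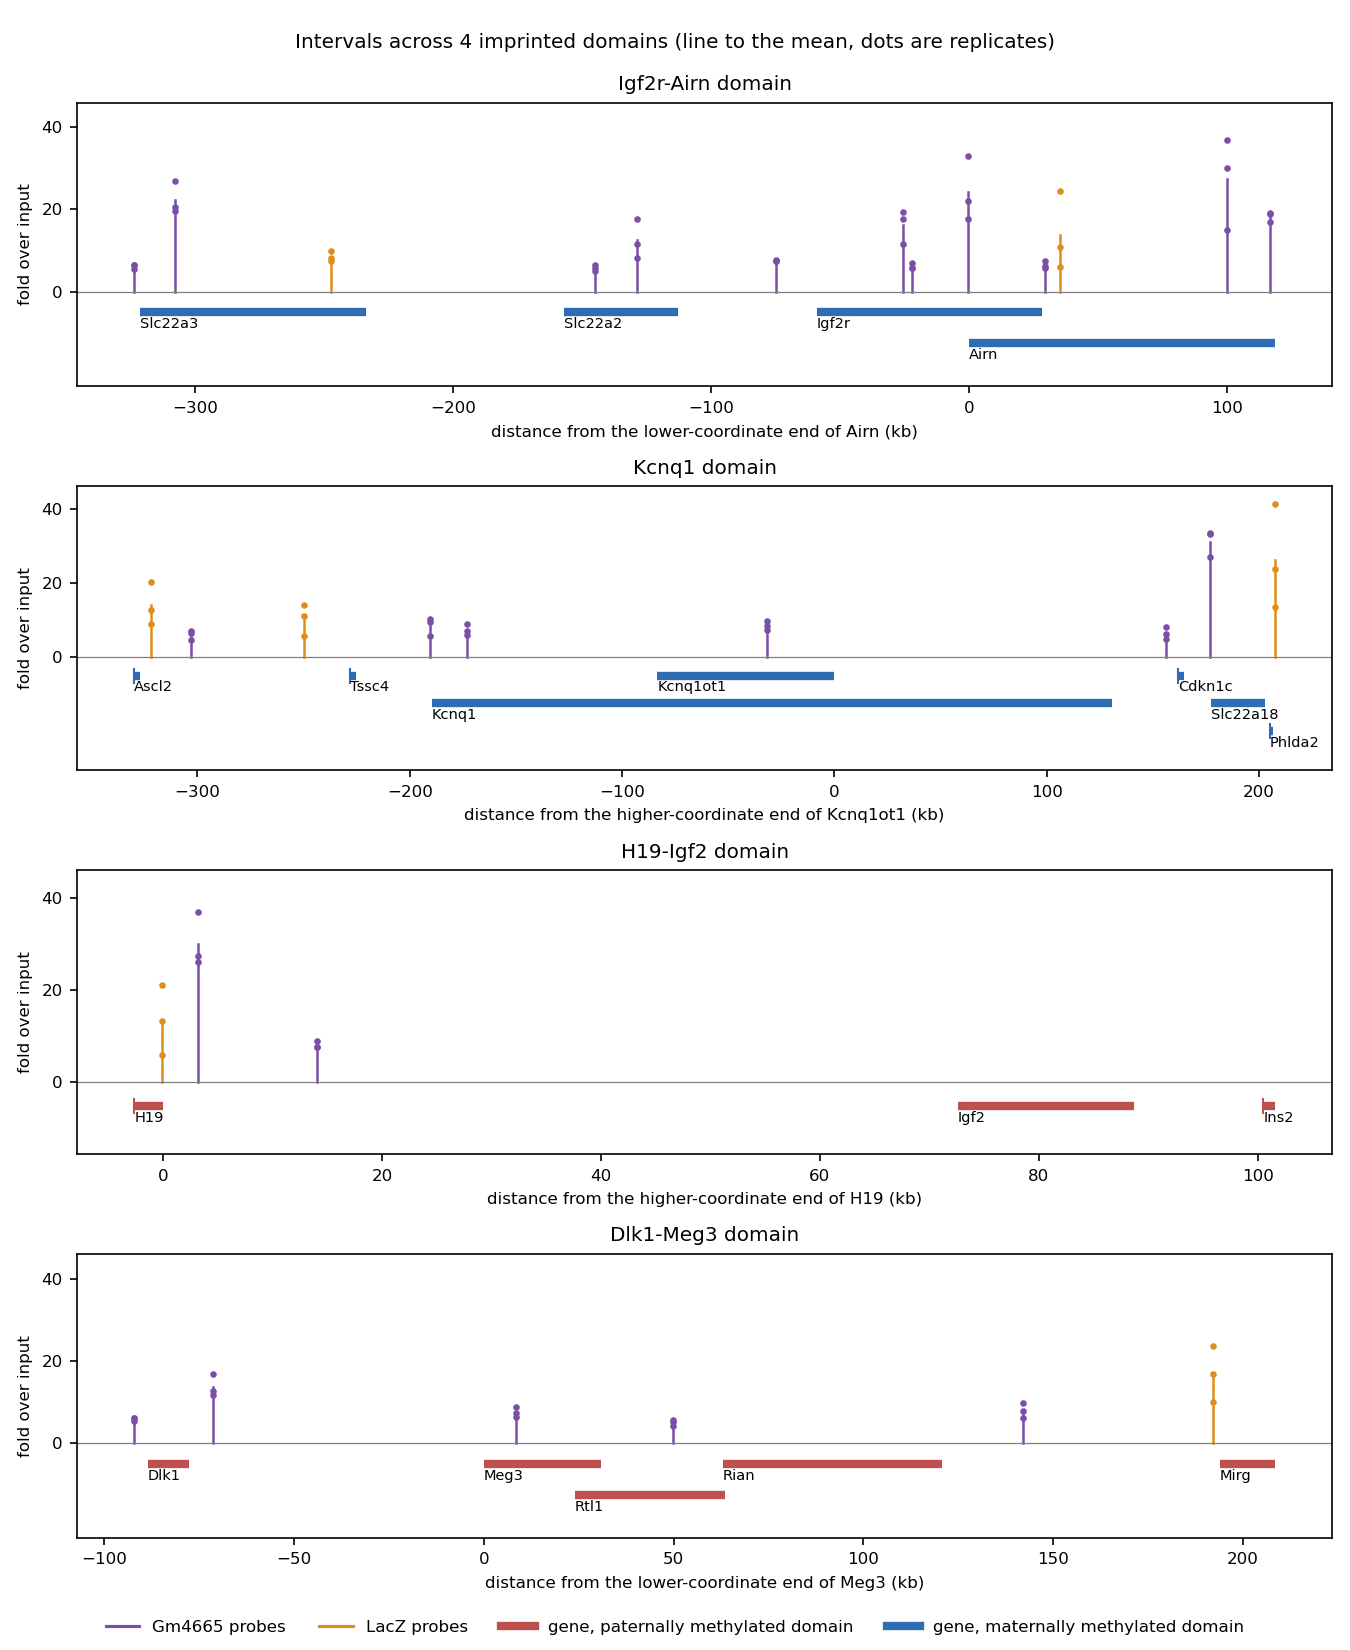
Maps of 4 domains, with distance from a named gene end in kb on the horizontal axis and fold over input on the vertical axis; each vertical line reaches an interval's mean fold, dots are its 3 replicates (purple for Gm4665 probes, orange for LacZ probes), and bars below are the member genes. Purple lines stand at the start of Airn (24.3), at Slc22a18 (31.1) and beside H19 (30.1), while those in the Dlk1-Meg3 domain at member genes stay below 8.

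The Peg3 domain, with the zinc finger genes Peg3 and Zim1 and the ubiquitin-protease family gene Usp29, had no Gm4665 interval in its whole 293 kb span. Usp29 is the member farthest from any, at 138970 bp. LacZ intervals were listed there. Past the 3′ end of Zim1, chr7:6671759-6672817 had 47.6, 16.2 and 28.8 (mean 30.9 ± 15.8, SD, n = 3), the highest LacZ mean among the 40 genes. Inside Usp29, chr7:6811748-6812748 had 27.5, 12.1 and 11.8 (mean 17.1 ± 8.99, SD, n = 3).

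In the Snrpn domain, the mouse counterpart of the Prader-Willi and Angelman region, 4 Gm4665 intervals lay within the long Snrpn span (59982495 to 60450177), all of them also inside the noncoding RNA gene Snhg14. The interval chr7:59987344-59987659, also inside Snurf, had folds of 9.21, 7.82 and 12.7 (mean 9.93 ± 2.54, SD, n = 3), and chr7:60024555-60024870 had 8.32, 5.44 and 7.4 (mean 7.05 ± 1.47, SD, n = 3). Farther on, chr7:60280749-60281064 had 7.5, 6.46 and 4.93 (mean 6.3 ± 1.29, SD, n = 3) and chr7:60432662-60433023 had 9.89, 7.82 and 14 (mean 10.6 ± 3.13, SD, n = 3). All 4 were narrow, 316 to 362 bp, beside a list median of 582 bp. The nearest Snrpn start site lay 17154 bp from any of them. LacZ intervals there were chr7:59980021-59980925 past the gene's end, with 24.2, 6.36 and 8.65 (mean 13.1 ± 9.69, SD, n = 3), and chr7:60184025-60184879 inside it, with 26.5, 10 and 6.92 (mean 14.5 ± 10.5, SD, n = 3).

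The makorin gene Mkrn3 held a Gm4665 interval, chr7:62418784-62419110, 1043 bp from its start, with folds of 8.87, 7.48 and 7.59 (mean 7.98 ± 0.769, SD, n = 3). Its neighbours Ndn and Magel2, which encode MAGE family proteins, and the ubiquitin ligase gene Ube3a had no interval of either list. Ube3a is 82088 bp long, in the length class in which 80.2% of all genes have a Gm4665 interval.

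The 2 strongest Gm4665 intervals of the set lay in domains represented by a pair of genes. Commd1, whose intron houses the imprinted retrogene Zrsr1, had chr11:22925103-22926649 at 48.8, 42.2 and 48.5 (mean 46.5 ± 3.76, SD, n = 3), higher than 98.6% of the list, and chr11:22929245-22930437 at 17.3, 15 and 16 (mean 16.1 ± 1.13, SD, n = 3). The first is the highest mean among the 38. The far wider interval at the Gm4665 gene itself, chr9:115165775-115191874, had 116 ± 14 (SD, n = 3), and the highest mean of the whole list was 143. Zrsr1 lay 41568 bp from the nearest Gm4665 interval. Neither gene had a LacZ interval.

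Copg2, a coat protein gene beside Mest, had chr6:30889259-30890417 at 44.8, 25.5 and 37.8 (mean 36.1 ± 9.76, SD, n = 3), higher than 96.3% of the list. A second, chr6:30850968-30852158, had 17.7, 14.3 and 14.8 (mean 15.6 ± 1.86, SD, n = 3). Mest had only a LacZ interval, chr6:30738977-30739707, 924 bp from a start site, with 9.56, 5.85 and 6.92 (mean 7.44 ± 1.91, SD, n = 3), the lowest LacZ mean of the set. In the Peg10-Sgce pair, which shares a control region, the epsilon-sarcoglycan gene Sgce held chr6:4736323-4738075 at 40.2, 21.4 and 29 (mean 30.2 ± 9.49, SD, n = 3). Peg10, a retrotransposon-derived gene, lay 9231 bp from it, the closest of the genes without one. Sgce also had a LacZ interval, chr6:4685963-4686847, at 18.7, 5.91 and 4.92 (mean 9.85 ± 7.7, SD, n = 3), where replicate 1 stood apart.

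Grb10, which encodes a growth-restraining adaptor, had a single Gm4665 interval, chr11:11936861-11937683, with folds of 12.9, 12.3 and 18.4 (mean 14.5 ± 3.41, SD, n = 3). At Gnas, which encodes a stimulatory G protein subunit, chr2:174286183-174286681 had 6.03, 5.72 and 5.95 (mean 5.9 ± 0.159, SD, n = 3) and also lies in the antisense RNA Nespas, found in RefSeq as Gnasas1. The other Gnas interval, chr2:174315141-174315844, had 13.7, 19 and 15.9 (mean 16.2 ± 2.71, SD, n = 3). Its replicates did not overlap those of the first. Plagl1, a zinc finger gene that controls a network of imprinted genes, had chr10:13089377-13089688 upstream, 1144 bp from the start, at 8.52, 8.5 and 8.24 (mean 8.42 ± 0.159, SD, n = 3), with the replicates nearly equal. Grb10, Gnas, Nespas and Plagl1 had no LacZ interval, and the neuronatin gene Nnat had none of either list.

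Impact, a regulator of translation, was marked by both probe sets at close range. Gm4665 intervals were chr18:12964819-12965359 inside the gene, at 13.6, 8.05 and 12.3 (mean 11.3 ± 2.92, SD, n = 3), and chr18:12997661-12998404, 4711 bp past its higher-coordinate end, at 22.5, 10 and 13 (mean 15.2 ± 6.53, SD, n = 3). LacZ intervals were chr18:12991299-12992507 at 34.7, 15 and 16.7 (mean 22.1 ± 10.9, SD, n = 3) and chr18:12992755-12993826 across that end at 38.5, 10.9 and 19.6 (mean 23 ± 14.1, SD, n = 3). A gap of 3835 bp separated the nearest pair of the 2 lists.

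Across the 38 Gm4665 intervals, 30 touched the span of a member and 8 lay only in the flanks. Without the flanks, 19 of 40 genes had a Gm4665 interval, beside 22.0% of all genes, and 9 of 40 a LacZ interval, beside 9.01%. Of the 38, 4 lay at a pair of members that overlap or adjoin. By mean fold, 6 of the 38 (15.8%) were in the top 10% of the list: those at Commd1, Copg2, Slc22a18, Sgce, H19 and Airn. Of the 15 LacZ intervals a single one, at Zim1, was in the top 10% of its list (6.67%). The 17 genes without a Gm4665 interval were Igf2, Ins2, Rian, Mirg, Phlda2, Ascl2, Tssc4, Peg3, Usp29, Zim1, Ube3a, Ndn, Magel2, Peg10, Mest, Zrsr1 and Nnat. They lay 9.23 to 139 kb from the nearest (median 37.1 kb). With a fold of at least 10 required in all 3 replicates, 12 of 40 genes were marked in the Gm4665 list (30%), beside 15.8% of all genes, and 6 of 40 in the LacZ list (15%), beside 4.80%. By length, the Gm4665 counts were 9 of 15 at 50 kb and over, 2 of 14 at 5 to 50 kb and 1 of 11 under 5 kb. With LacZ probes they were 1 of 15, 4 of 14 and 1 of 11. The shares of all genes at this minimum, and those without flanks, were not split by length.

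**Figure D4:**
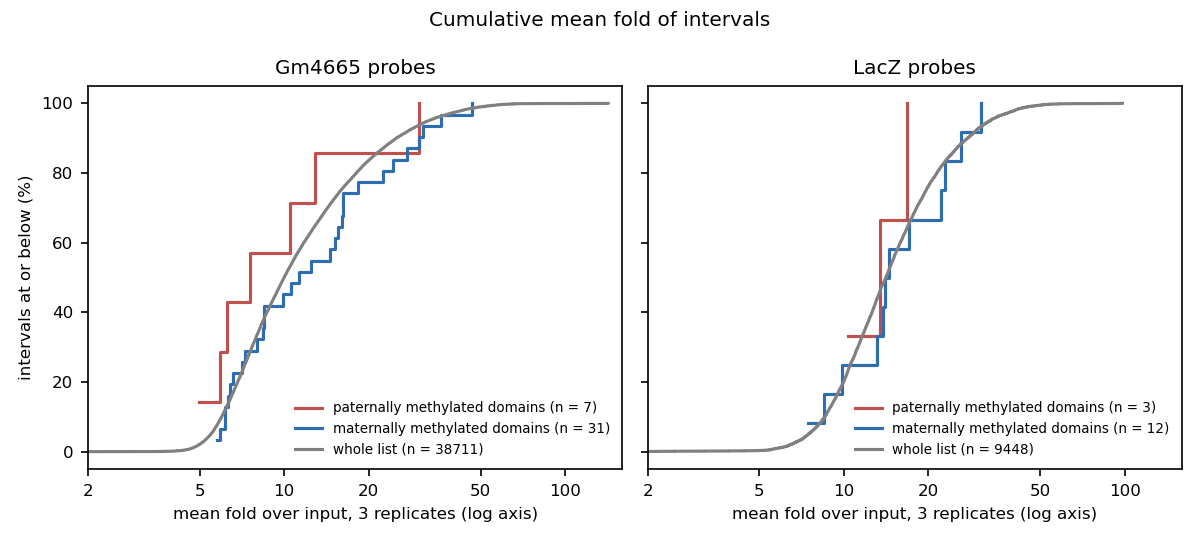
Cumulative percentage of intervals (vertical axis) by mean fold over 3 replicates (horizontal, log axis), Gm4665 probes on the left and LacZ probes on the right, for intervals at paternally methylated domains (red), at maternally methylated domains (blue) and in the whole list (grey). On the left the red line, 7 intervals, runs left of the grey up to 12.9. It is then flat to its single high interval at H19 (30.1) and crosses the grey on the way. The blue line, 31 intervals, follows the grey with its end at 46.5.

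Imprinted genes outside this set also had shares above those of all genes with both probe sets, without matching for length. Of 37 others found in RefSeq from a list of 38 (Zfp264 was the other), 18 had a Gm4665 interval within 5 kb (48.6%), beside 33.7% of all genes, and 10 had a LacZ interval (27%), beside 12.9%. Their median length was 38.7 kb, beside 28.7 kb for the 40. Among all genes of 5 to 50 kb the shares were 39.0% and 13.2%, and among those of 50 kb and over 80.2% and 41.2%. The strongest Gm4665 intervals lay at the actin-nucleator gene Cobl, a neighbour of Grb10, with folds of 52.5, 39.1 and 54.7 (mean 48.8 ± 8.44, SD, n = 3), and at the serotonin receptor gene Htr2a, with 55.9, 37.4 and 53 (mean 48.8 ± 9.96, SD, n = 3). Inpp5f, a phosphatase gene, had 42.3, 29.6 and 38.3 (mean 36.7 ± 6.47, SD, n = 3). Osbpl5, which borders the Kcnq1 domain, had 36.2, 32.6 and 27.9 (mean 32.3 ± 4.2, SD, n = 3). LacZ intervals were also listed at Htr2a, with 23, 6.82 and 13.3 (mean 14.4 ± 8.15, SD, n = 3), and at Inpp5f, with 34.7, 10.9 and 10.9 (mean 18.8 ± 13.7, SD, n = 3), while Cobl and Osbpl5 had none.

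Among 12 genes for proteins that set or keep imprints, 6 had a Gm4665 interval (50%), beside 33.7% of all genes, and 3 a LacZ interval (25%), beside 12.9%. Their median length was 24.7 kb, and among all genes of 5 to 50 kb the shares were 39.0% and 13.2%. Dnmt3a, which encodes a DNA methyltransferase that writes imprints in germ cells, had 5, the strongest at 47.7, 37.1 and 29.7 (mean 38.2 ± 9.05, SD, n = 3), and no LacZ interval. It is 112885 bp long, in the length class in which 80.2% of all genes have a Gm4665 interval.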

How the data were processed

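The deposited values are 2 peak lists, made with MACS2 per the file names and on the mm10 build per the submitters' processing notes. The caller version, its settings, the aligner and how replicates became 1 list were not given in the sources used here. Every interval holds a linear fold enrichment ratio over input for each of 3 replicates, per the file headers. Rows repeating an interval (649 in the Gm4665 list, 165 in the LacZ list) were joined at the highest fold of each replicate, and intervals on sequences other than chromosomes 1 to 19, X and Y were left out (116 and 25). Coordinates are 1-based. Genes came from RefSeq (GRCm38.p6); 340 of 49943 entries starting below 3 Mb on chromosomes other than Y were left out as scaffold coordinates. Of the members, 39 matched by symbol and 1 by synonym. An interval was counted at a gene when it overlapped the span with 5 kb flanks by 1 bp. Library totals are unknown, so no counting interval is given.

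No test was run: each list holds 1 set of intervals, lists were normalised separately, and members' shares are set beside those of all genes. The members and the gene lists were chosen with earlier results of these data known. All 40 members and all 53 intervals are named, and from the other 2 lists the 5 genes with the strongest Gm4665 interval. Overlap counting was tested on simulated intervals. Python 3.11.15, pandas 2.3.3, NumPy 2.4.6 and matplotlib 3.10.9 were used. Alternatives covered flanks, fold minimum, midpoint overlap, list size, LacZ overlap, joining and replicates.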

Additional observations from a re-analysis of the deposited data

How the results depend on the processing

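Without flanks, 9 members had a LacZ interval and 3 of the 9 in paternally methylated domains a Gm4665 interval, as with 2 kb flanks (3), since the intervals at H19 and Dlk1 lie outside the genes. Where every replicate had to reach a fold of 10, there were 12 members and 16 intervals in the Gm4665 list (5.6 midpoints per Mb). The LacZ list then had 6 members and 6 intervals (2.24 midpoints per Mb). In the Gm4665 list these were 2 of 9 members in paternally and 10 of 31 in maternally methylated domains. It also marked 10 of the 37 other imprinted genes. At this minimum the shares of all genes were 15.8% with Gm4665 probes and 4.80% with LacZ probes. A further setting used only the 9448 highest Gm4665 intervals, the number in the LacZ list. It left 9 of 40 members with 11 intervals (4.1 midpoints per Mb). Of these 9 members, 1 was in a paternally and 8 in maternally methylated domains, and 7 of the 37 other imprinted genes were marked. The share of all genes at this list size is not given, so these counts have no background and are not set against those of the LacZ list. The other 66 values moved by at most 1.5 times or by less than the spread between replicates; LacZ intervals at members without flanks (10, against 15) and imprint regulators with the fold minimum or the smaller list (4, against 6) moved by exactly that factor. Leaving out single replicates gave mean median folds at members of 9.46 to 11.1 with Gm4665 probes and of 10.9 to 18 with LacZ probes, the lowest LacZ value without replicate 1; interval positions could not be recomputed. No paired analysis was possible because no result comes from a test and the 2 lists hold different intervals. Shares over 40 genes move in steps of 1 gene, and depth is unknown.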

Other observations

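Within the spans of the multi-gene domains, outside the windows of the member genes, the Snrpn domain held 14 further Gm4665 intervals and 1 LacZ interval in a stretch of 3191 kb between Ube3a and Mkrn3. At 5.93 Gm4665 intervals per Mb over the span, it was sparser than the autosomes (15.7 per Mb). The strongest of these, chr7:61998303-61999625, had folds of 53.9, 42.2 and 33.3 by Gm4665 replicate (mean 43.1 ± 10.3, SD, n = 3), and chr7:62066910-62068126 had 33.3, 28.8 and 41.9 (mean 34.7 ± 6.70, SD, n = 3). Both exceed every Gm4665 interval at the domain's member genes, whose highest mean was 10.6.

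Between Dlk1 and Meg3, the region known to hold the sperm-methylated control element, the interval chr12:109469214-109470028 lay on the Dlk1 side, with folds of 16.7, 11.6 and 12.7 (mean 13.7 ± 2.69, SD, n = 3), above every Gm4665 interval at the member genes of that domain. Between H19 and Igf2 a second, weaker interval, chr7:142591879-142592532, had 9.07, 7.66 and 7.69 (mean 8.14 ± 0.807, SD, n = 3). All these intervals were chosen after their values were seen.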
